A study of Homo sapiens with 15 samples.

Results

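NOTCH receptors (NOTCH1, NOTCH2 and NOTCH3), their Jagged ligands (JAG1 and JAG2) and 4 genes that NOTCH signalling is known to switch on (HES1, HES4, HEY1 and NRARP) were followed across 5 groups of A375, a line of human melanoma cells whose BRAF kinase is mutated and active. These 9 genes were taken by name from a table of 18322 genes, and all 9 were found there. Each group held 3 RNA-seq libraries, described by the submitters as biological triplicates. The groups were Resistant cells labelled shMYC2, Resistant cells labelled shMYC1, Resistant cells, Parental cells with MYC T58A, and Parental cells. Resistant cells are a clonal A375 population resistant to PLX4720, an inhibitor of mutant BRAF. Per the labels both hairpin groups are derived from resistant cells, and on that account neither group samples independent resistant populations. This origin is known from the labels alone. shMYC1 and shMYC2 name short hairpin RNAs against MYC, and T58A is a substitution that slows the breakdown of the MYC protein. The promoter of the MYC T58A transgene, the hairpin vector and any exposure to the drug at harvest are not stated by the labels. All cells were grown in ordinary culture and harvested before they covered the dish. Parental and MYC T58A cells share the parental background, and Parental libraries serve as reference for both the Resistant and the MYC T58A comparisons, while Resistant libraries serve as reference for both hairpin labels. Values are reads normalized for library size, libraries are numbered from 1 to 3 within a group in the order of the table, and that number is only a name.

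NOTCH receptors are membrane proteins that are cut by furin on their way to the cell surface. A ligand on a neighbouring cell pulls on the receptor, after which ADAM proteases and then gamma-secretase release its intracellular domain. That domain enters the nucleus, binds the DNA-binding protein RBPJ together with a Mastermind coactivator (MAML), and switches on genes of the HES and HEY families, which encode repressors, and NRARP, which encodes a small protein that dampens the receptor complex. In the mouse, NOTCH signalling through Hes1 keeps melanoblasts and melanocyte stem cells alive. Receptor cleavage was not measured here, so the values below are transcript levels alone.

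The promoters of the members differ in whether they hold the core of the RBPJ site, TGGGAA. RefSeq promoter sequences of build GRCh38.p14, read as the 250 bases before the transcript start, matched 8 of the 9 members, all but HEY1. TGGGAA, searched on both strands, lay in HES1 and HES4 and in none of the other 6. HES1 held 2 copies, which began 84 and 70 bases before the start, and HES4 held 1 copy, which began 76 bases before it. Of all 35116 RefSeq promoters of that length, 20.85% held at least 1 copy and 2.9% held at least 2. HES1 and HES4 are printed for these copies, and JAG2 and NRARP are printed because they are the 2 members with almost no reads outside 1 group. Capitals mark TGGGAA, and each sequence runs 5′ to 3′ on the strand of its gene. HES1 is on the plus strand at chr3:194135898-194136147, HES4 on the minus strand at chr1:1000098-1000347, JAG2 on the minus strand at chr14:105168777-105169026 and NRARP on the minus strand at chr9:137302272-137302521.
HES1: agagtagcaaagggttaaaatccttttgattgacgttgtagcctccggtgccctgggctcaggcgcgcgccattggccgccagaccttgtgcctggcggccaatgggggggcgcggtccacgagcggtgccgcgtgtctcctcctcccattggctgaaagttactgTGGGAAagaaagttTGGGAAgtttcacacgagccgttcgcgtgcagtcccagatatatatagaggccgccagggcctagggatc
HES4: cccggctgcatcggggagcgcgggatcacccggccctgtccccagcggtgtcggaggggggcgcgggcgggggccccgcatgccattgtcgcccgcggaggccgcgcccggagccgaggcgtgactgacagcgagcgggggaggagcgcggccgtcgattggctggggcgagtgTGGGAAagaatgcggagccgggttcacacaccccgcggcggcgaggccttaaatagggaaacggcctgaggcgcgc
JAG2: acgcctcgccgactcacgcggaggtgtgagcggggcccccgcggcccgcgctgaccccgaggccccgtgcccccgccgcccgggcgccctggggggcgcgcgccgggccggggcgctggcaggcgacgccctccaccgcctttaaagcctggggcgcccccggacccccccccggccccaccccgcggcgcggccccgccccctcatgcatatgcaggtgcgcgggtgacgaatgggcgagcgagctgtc
NRARP: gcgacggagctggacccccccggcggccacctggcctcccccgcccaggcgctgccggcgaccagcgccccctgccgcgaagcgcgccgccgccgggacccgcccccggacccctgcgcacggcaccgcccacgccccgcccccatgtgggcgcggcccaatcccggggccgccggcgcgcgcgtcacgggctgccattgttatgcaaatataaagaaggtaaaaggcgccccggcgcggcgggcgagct
In HES1 both copies are on the strand of the gene. The N-box CACNAG, a site that HES1 can bind, was also found in HES1 with 3 copies and in NOTCH3 with 1 copy, on either strand. Of all promoters, 32.04% held it. CACGTG, the E-box of MYC and MAX, lay in none of the 8 windows, and 6.34% of all promoters held it. A match describes these letters and is no evidence of binding.

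**Figure D1:**
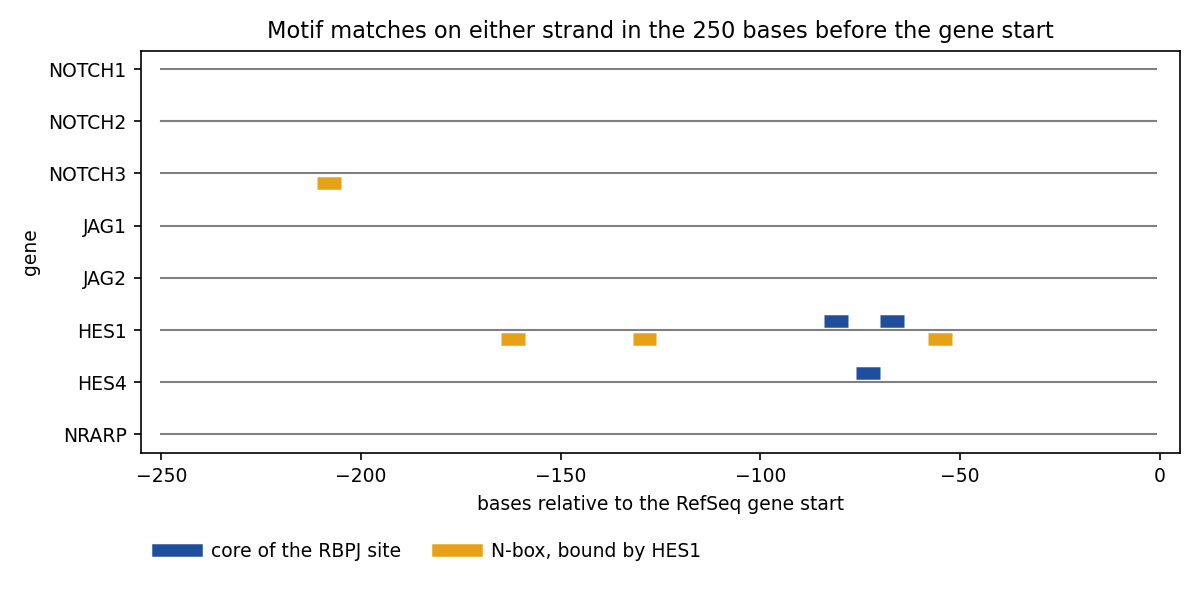
Positions of the RBPJ core and the HES1 N-box in the 250 bases before the start of the 8 members with a RefSeq promoter, with distance from the start in bases on the horizontal axis and 1 row per gene. The RBPJ core is marked in HES1 and HES4, and the N-box in HES1 and NOTCH3.

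The libraries held 24222192 to 30399644 reads each. MYC itself did not follow the hairpin labels: it averaged 7817 ± 259.8 normalized reads in shMYC2-labelled libraries and 486 ± 29.5 in shMYC1-labelled libraries, against 302 ± 28.1 in Resistant libraries (SD, n = 3 each). MYC was thus higher, not lower, in both, and no direction below is read as an effect of less MYC. MYC averaged 3511 ± 94.4 normalized reads in MYC T58A cells and 423 ± 11.9 in Parental cells. The shMYC2-labelled libraries stood furthest from the rest, with correlations of 0.828 to 0.848 to libraries of other groups, against 0.990 to 0.994 within groups. The shMYC1-labelled libraries stood closer to Parental (0.973 to 0.975) than to Resistant libraries (0.943 to 0.948). The origin of the cells was not tested. SOX10, used here as a melanocytic marker, ranged from 16.1 to 23.5 normalized reads in shMYC2-labelled and 11031 to 13181 in shMYC1-labelled libraries. It ranged from 4.70 to 9.60 in Resistant, 7.05 to 11.02 in MYC T58A and 5178 to 5453 in Parental libraries. The 6 melanocytic markers analysed of 8 summed to between 191 and 244 normalized reads in shMYC2-labelled, 13098 and 15464 in shMYC1-labelled, 3549 and 3988 in Resistant, 3579 and 3974 in MYC T58A, and 6801 and 7102 in Parental libraries. MITF, the pigment cell regulator, made up nearly all of the Resistant and MYC T58A sums, with 3500.4 to 3963 normalized reads in Resistant and 3431 to 3808 in MYC T58A, against 1508 to 1511 in Parental libraries. DCT, a pigment enzyme gene, stayed under 10 in every library outside MYC T58A. The 8 fibroblast markers summed to between 2428 and 2523 in shMYC2-labelled, 335 and 348 in shMYC1-labelled, 3711 and 3925 in Resistant, 361 and 431 in MYC T58A, and 352 and 413 in Parental libraries, and COL3A1, a fibrillar collagen gene, did not reach 10 outside MYC T58A. THY1, a surface protein gene, made up most of the sum in shMYC2-labelled libraries (1923 to 1995, with LUM at 3.07 to 5.38), and LUM, the lumican gene, most of it in Resistant libraries (2954 to 3113, with THY1 at 0 to 6.40). Endothelial, keratinocyte and immune markers summed to at most 164, 496 and 278 in any library. The part of these shifts in the results below was not tested. In such bulk libraries fewer cells of a kind and less RNA per cell cannot be told apart.

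NOTCH1, the receptor best known from T-cell leukaemia, was highest in shMYC1-labelled libraries and lowest in Resistant libraries. It had 954, 921 and 860.3 normalized reads in shMYC2-labelled, 1763, 1444 and 1369 in shMYC1-labelled, 590.2, 702 and 738 in Resistant, 1278, 1362 and 1367 in MYC T58A, and 933, 891 and 946 in Parental libraries. All 3 Resistant libraries lay below every other library of the study. On the log2(value + 1) scale, NOTCH1 was 0.45 lower in Resistant than in Parental cells (log2 difference -0.45, SE 0.088, adjusted p = 0.000299) and 0.53 higher in MYC T58A than in Parental cells (adjusted p = 4.22e-05). Against Resistant, it was 1.17 higher in shMYC1-labelled libraries (2.25-fold, adjusted p = 3.33e-09) and 0.43 higher in shMYC2-labelled libraries (adjusted p = 0.000206; 0.29 with libraries scaled to equal totals). In the order of mean levels, the difference of shMYC1-labelled from MYC T58A libraries was not called (log2 difference 0.18, adjusted p = 0.0765), although their libraries did not overlap. Parental and shMYC2-labelled libraries did not differ beyond their spread (0.02, adjusted p = 0.845).

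NOTCH2, which shares its ligands with NOTCH1, was the most abundant member per kilobase of exon in every group and moved most in MYC T58A cells. Normalized reads were 10392, 10015 and 10363 in shMYC2-labelled, 8747, 8659.6 and 8354 in shMYC1-labelled, 10938, 12816 and 11524 in Resistant, 5690.4, 5824 and 5550.3 in MYC T58A, and 10016, 10163 and 10481 in Parental libraries. The 3 MYC T58A libraries were the lowest of all 15, and the 3 Resistant libraries the highest. NOTCH2 fell 1.80-fold in MYC T58A against Parental cells (log2 difference -0.85, SE 0.050, adjusted p = 8.18e-11). Among the 25 tested genes on either side of it on chromosome 1 the median log2 difference was -0.52. It was 0.20 higher in Resistant than in Parental cells (adjusted p = 0.0025), and against Resistant it was lower by 0.45 in shMYC1-labelled libraries (log2 difference -0.45, adjusted p = 4.07e-07) and by 0.19 in shMYC2-labelled libraries (log2 difference -0.19, adjusted p = 0.00165). The last of these was -0.36 with quantile normalization and -0.34 with libraries scaled to equal totals. Parental and shMYC2-labelled libraries were neighbours in level that did not differ beyond their spread (adjusted p = 0.928). NOTCH2NL is a near-identical partial copy of NOTCH2, so the split of reads between the pair is uncertain: it averaged 243 normalized reads in MYC T58A and 388 in Parental cells, with a log2 difference of -0.67.

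NOTCH3, a receptor best known from vascular smooth muscle, was nearly lost in shMYC2-labelled libraries alone. It had 7.54, 9.39 and 7.16 normalized reads in shMYC2-labelled, 288, 271 and 215 in shMYC1-labelled, 195, 209.6 and 226 in Resistant, 229, 238 and 259 in MYC T58A, and 235, 226 and 236 in Parental libraries. The highest shMYC2-labelled library lay far under the lowest of the other 12. NOTCH3 fell 26.2-fold in shMYC2-labelled libraries against Resistant (log2 difference -4.55, SE 0.126, adjusted p = 3.34e-16), where its 50 neighbours on chromosome 19 had a median log2 difference of -0.52. Among the other 4 groups no pair of neighbours in level was called for NOTCH3, although Parental and Resistant libraries did not overlap. Its log2 difference was -0.15 in Resistant against Parental (adjusted p = 0.356), 0.06 in MYC T58A against Parental (adjusted p = 0.708) and 0.29 in shMYC1-labelled libraries against Resistant (adjusted p = 0.061). The last of these passed the threshold under 6 of 18 alternative settings.

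**Figure D2:**
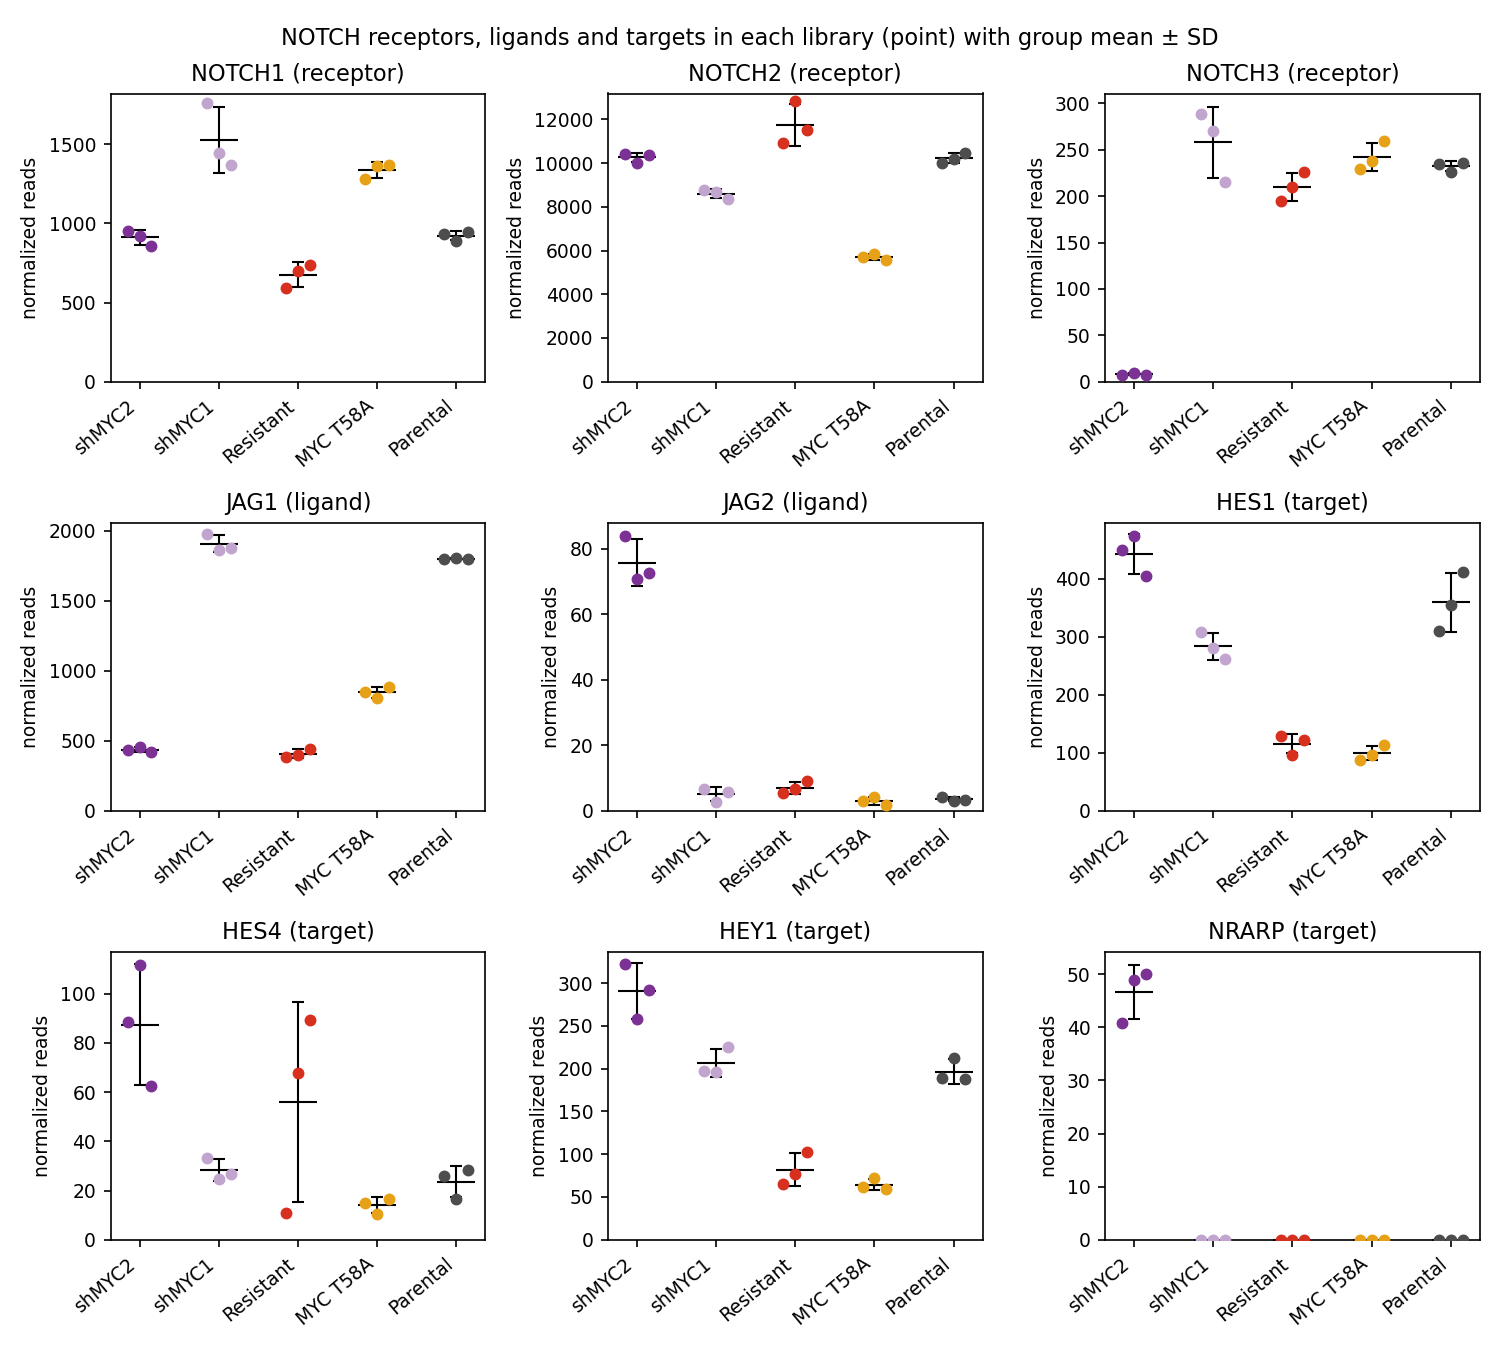
Normalized reads of the 9 members in each of the 15 libraries, 1 panel per gene, with groups from shMYC2 on the left to Parental on the right, a point per library, and the group's mean and SD. NOTCH3 drops to between 7.16 and 9.39 in shMYC2-labelled libraries, while JAG2 and NRARP stand out in these libraries alone.

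JAG1, a NOTCH ligand expressed in many tissues, took 3 levels across the groups. Its normalized reads were 435, 453 and 421 in shMYC2-labelled, 1979, 1865 and 1879 in shMYC1-labelled, 385, 396 and 442 in Resistant, 845, 804 and 887 in MYC T58A, and 1798, 1805 and 1799.9 in Parental libraries. Resistant and shMYC2-labelled libraries overlapped at the bottom, and MYC T58A libraries lay between them and the others. JAG1 fell 4.42-fold in Resistant against Parental cells (log2 difference -2.14, SE 0.058, adjusted p = 4.46e-15) and 2.13-fold in MYC T58A against Parental cells (log2 difference -1.09, adjusted p = 2.24e-11). It rose 4.68-fold in shMYC1-labelled libraries against Resistant (log2 difference 2.23, adjusted p = 1.34e-15). The difference of shMYC1-labelled from Parental libraries was not called (log2 difference 0.08, adjusted p = 0.289), although the libraries of these groups did not overlap. In shMYC2-labelled libraries the log2 difference from Resistant was 0.10 (adjusted p = 0.124), with no stable sign under other scaling: it was 0.28 with quantile normalization and -0.04 with equal totals. The 50 neighbours of JAG1 on chromosome 20 moved the same way by less, with medians of -0.52 in Resistant against Parental, -0.55 in MYC T58A against Parental and 0.53 in shMYC1-labelled libraries against Resistant, while the median was 0.45 in shMYC2-labelled libraries against Resistant.

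JAG2, the second Jagged ligand, was read at more than trace level only in shMYC2-labelled libraries. It had 84.0, 70.9 and 72.6 normalized reads there, 6.66, 2.65 and 5.74 in shMYC1-labelled, 5.34, 6.58 and 9.10 in Resistant, 3.01, 4.15 and 1.76 in MYC T58A, and 4.15, 3.07 and 3.13 in Parental libraries. Outside shMYC2-labelled libraries these values come from 9 to 22 reads per group, and no library reached a normalized value of 10. JAG2 was 10.8-fold higher in shMYC2-labelled libraries than in Resistant libraries (log2 difference 3.29, SE 0.33), a difference given with no test because JAG2 passed the filter on low values only through the shMYC2-labelled libraries, and the 34 neighbours tested near it on chromosome 14 had a median log2 difference of 0.63. Against Parental, the log2 difference of 0.83 in Resistant cells passed narrowly (adjusted p = 0.0438) and was lost under 10 of 18 alternative settings, with adjusted p from 0.018 to 0.161. No difference was detectable at this depth in MYC T58A against Parental (adjusted p = 0.615) or in shMYC1-labelled libraries against Resistant (adjusted p = 0.252).

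HES1, a classical target of NOTCH and a repressor of differentiation genes, was low in Resistant and MYC T58A cells. It had 449, 474 and 405 normalized reads in shMYC2-labelled, 308, 279.6 and 262 in shMYC1-labelled, 128, 96.8 and 121 in Resistant, 88.2, 96.6 and 113 in MYC T58A, and 309, 355 and 412 in Parental libraries. Resistant and MYC T58A libraries overlapped with each other and with no other group. HES1 fell 3.11-fold in Resistant against Parental cells (log2 difference -1.63, SE 0.127, adjusted p = 6.07e-09) and 3.62-fold in MYC T58A against Parental cells (log2 difference -1.84, adjusted p = 6.85e-10). Against Resistant it rose 2.46-fold in shMYC1-labelled libraries (log2 difference 1.30, adjusted p = 8.84e-08) and 3.84-fold in shMYC2-labelled libraries (log2 difference 1.94, adjusted p = 9.24e-11). The median of its 50 neighbours on chromosome 3 was 0.86 in shMYC2-labelled libraries against Resistant. In shMYC1-labelled libraries HES1 remained 0.33 under Parental on the log2 scale (log2 difference -0.33, adjusted p = 0.0445). Resistant and MYC T58A did not differ beyond their spread (adjusted p = 0.147).

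HEY1, a related repressor known from vessel development, showed the same order of groups at the bottom. Its normalized reads were 323, 258 and 293 in shMYC2-labelled, 198, 197 and 226 in shMYC1-labelled, 65.1, 77.1 and 103 in Resistant, 62.1, 71.7 and 59.1 in MYC T58A, and 189, 213 and 188 in Parental libraries. No Resistant or MYC T58A library reached the lowest library of the other 3 groups. HEY1 fell 2.41-fold in Resistant against Parental cells (log2 difference -1.28, SE 0.143, adjusted p = 6.5e-07) and 3.06-fold in MYC T58A against Parental cells (log2 difference -1.60, adjusted p = 2.27e-08). Against Resistant it rose 2.53-fold in shMYC1-labelled libraries (log2 difference 1.35, adjusted p = 2.55e-07), where its neighbours on chromosome 8 had a median of -0.38, and 3.56-fold in shMYC2-labelled libraries (log2 difference 1.84, adjusted p = 1.17e-09). shMYC1-labelled and Parental libraries did not differ beyond their spread (log2 difference 0.07, adjusted p = 0.736), and neither did Resistant and MYC T58A libraries (adjusted p = 0.057).

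HES4, a HES gene that mice lack, gave no call in any of the 4 main comparisons. Outside these, limma called HES4 higher in shMYC2-labelled than in Parental (log2 difference 1.85, adjusted p = 0.00972) and MYC T58A libraries (2.54, adjusted p = 0.00114). The shMYC2-labelled libraries were also called above shMYC1-labelled libraries (1.57, adjusted p = 0.0237). Resistant was called above MYC T58A (1.49, adjusted p = 0.0347), though their libraries overlapped. HES4 in shMYC1-labelled libraries was not called against Parental or MYC T58A. It had 88.3, 112 and 62.4 normalized reads in shMYC2-labelled, 33.3, 24.7 and 26.8 in shMYC1-labelled, 10.7, 67.7 and 89.2 in Resistant, 15.03, 10.4 and 16.7 in MYC T58A, and 26.0, 16.4 and 28.2 in Parental libraries. The Resistant libraries alone spanned most of this range, with library 1 below all 3 Parental libraries and libraries 2 and 3 above them. The log2 difference was 0.80 in Resistant against Parental (adjusted p = 0.27), and without Resistant library 1 it was 1.72 (adjusted p = 0.000102). In shMYC1-labelled libraries against Resistant it was -0.52 (adjusted p = 0.468), and without that library -1.44 (adjusted p = 0.000458). In shMYC2-labelled libraries against Resistant it was 1.05 (adjusted p = 0.112), without Resistant library 3 it was 1.60 (adjusted p = 0.0159), and without Resistant library 1 it was 0.13 (adjusted p = 0.696). In MYC T58A against Parental it was -0.69 (adjusted p = 0.314, or 0.0373 with no other group in the fit). HES4 transcripts are 74.2% G and C, the highest share of the 9 members. Over 1100 genes with at least 61.4% G and C, the median log2 deviation from the other libraries of the group was -0.17 in Resistant library 1, -0.02 in library 2 and 0.20 in library 3, so the order of the 3 libraries is that of HES4. The part of base composition was not tested.

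NRARP, which encodes the feedback inhibitor, had 40.9, 49.0 and 50.1 normalized reads in shMYC2-labelled libraries and no read in any of the other 12. Counting 3 reads per library as the most that a count of 0 allows, NRARP was at least 16-fold higher in shMYC2-labelled libraries than in Resistant libraries and at least 15-fold higher than in Parental libraries. No test is given, since NRARP passed the filter on low values only through the shMYC2-labelled libraries. Between the other 4 groups there was nothing to compare at this depth.

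**Figure D3:**
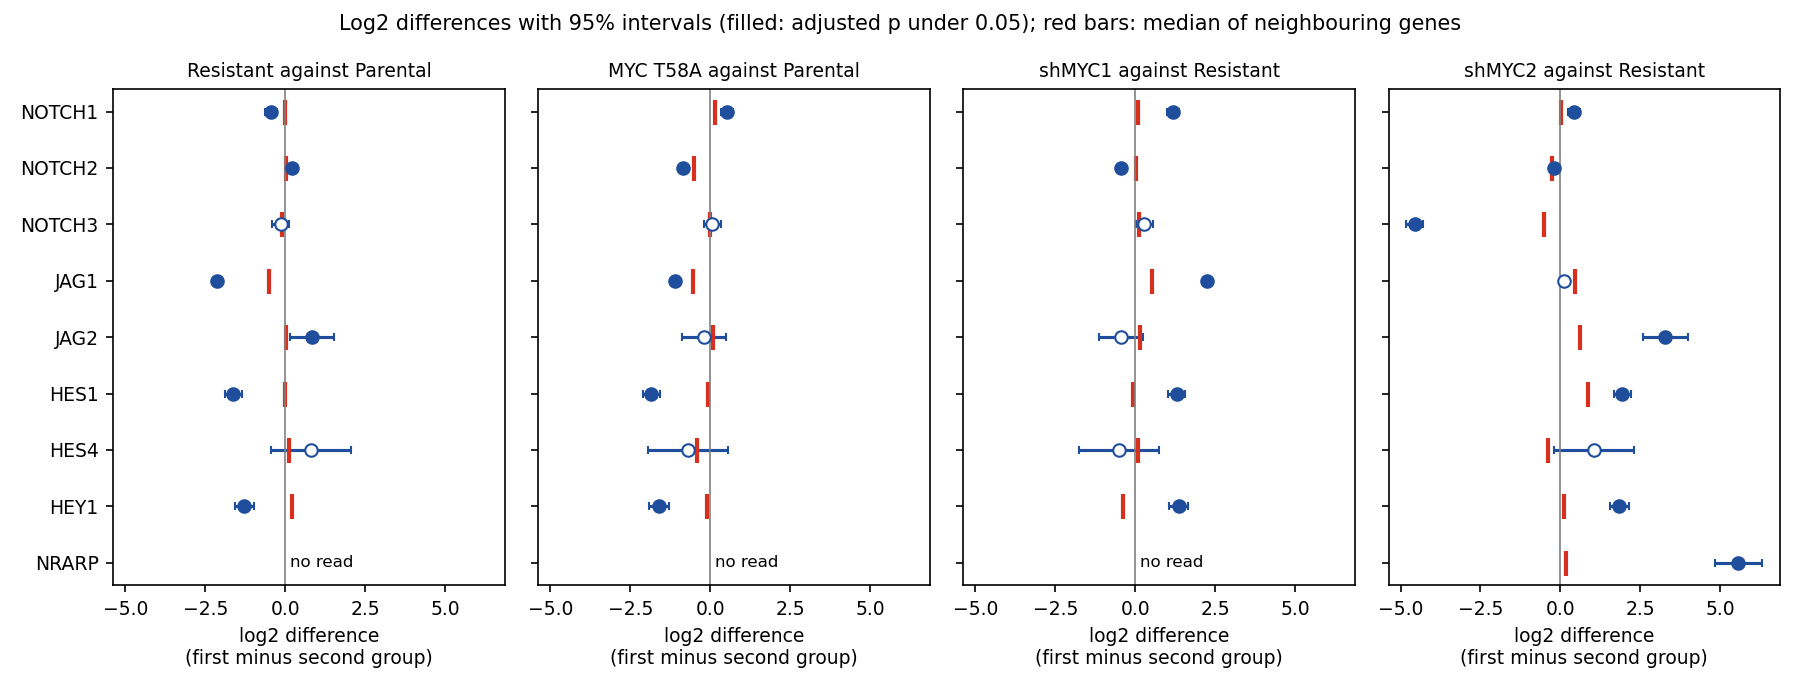
Log2 differences on the log2(normalized reads + 1) scale of the 9 members in the 4 main comparisons, with 95% intervals from the fit, filled points where called, and a red bar at the median of the neighbouring genes (50, but 34 for JAG2 and 33 for HES4 and NRARP). In shMYC2 against Resistant the filled points and intervals of JAG2 and NRARP are descriptions and are not read as tests. HES1 lies at -1.63 in Resistant and -1.84 in MYC T58A against Parental, and at 1.30 in shMYC1-labelled and 1.94 in shMYC2-labelled libraries against Resistant, while JAG1 lies at 0.10 in the last of these.

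Each comparison changed a large share of the table, and the members' counts are read against that share. JAG2 and NRARP passed the filter on low values only through the shMYC2-labelled libraries and are left out of these counts. Of the other 7 members, 1 was higher and 4 were lower in Resistant against Parental, where 51.6% of all 17012 tested genes were called (27.2% higher, 24.4% lower). In MYC T58A against Parental 1 was higher and 4 were lower, where 63.8% of genes were called (30.1% higher, 33.7% lower). In shMYC1-labelled libraries against Resistant 4 were higher and 1 lower, where 57.1% of genes were called (27.0% higher, 30.1% lower). In shMYC2-labelled libraries against Resistant 3 were higher and 2 lower, where 79.2% of genes were called (36.2% higher, 43.0% lower). Without Resistant library 1 the counts were 2 higher in Resistant against Parental and 2 lower in shMYC1-labelled libraries against Resistant, and 5 were higher in shMYC2-labelled libraries against Resistant without Resistant library 3 or with quantile normalization. Over the 7 members, 13 of the 28 pairs of groups that are neighbours in level were called, and the share of all genes called in the pairs of groups outside the 4 main comparisons was 78.6% for shMYC2 against shMYC1, 79.3% for shMYC2 against MYC T58A, 79.5% for shMYC2 against Parental, 64.9% for shMYC1 against MYC T58A, 39.6% for shMYC1 against Parental and 67.8% for Resistant against MYC T58A. Neighbouring pairs were picked for each member by the order of its means, while these shares are of fixed pairs over all genes. The count of 13 of 28 and the shares are therefore unlike measures. With 7 members, 5 called in each of the 4 main comparisons is near the shares given for those comparisons. Both comparisons with Parental use the same Parental libraries, so their values only stand side by side: the log2 difference in Resistant and in MYC T58A was -2.14 and -1.09 for JAG1, -1.63 and -1.84 for HES1, -1.28 and -1.60 for HEY1, -0.45 and 0.53 for NOTCH1, and 0.20 and -0.85 for NOTCH2.

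Levels of different genes can be compared once divided by transcript length, here the summed exon length in GENCODE v29. Among the 3 receptors, NOTCH2 supplied 87.3% ± 0.65 of normalized reads per kilobase in shMYC2-labelled, 74.6% ± 2.15 in shMYC1-labelled, 88.9% ± 0.91 in Resistant, 68.7% ± 1.11 in MYC T58A and 84.2% ± 0.39 in Parental libraries (SD, n = 3 each). NOTCH1 supplied 26.1% ± 0.79 in MYC T58A and 12.3% ± 0.32 in Parental libraries. Summed per kilobase, the receptors stood at 699 ± 12.7 in shMYC2-labelled, 685 ± 34.6 in shMYC1-labelled, 787 ± 62.3 in Resistant, 493 ± 8.93 in MYC T58A and 722 ± 15.8 in Parental libraries. As a ratio of the highest to the lowest group mean, the pool of receptor transcripts varied by less than that of ligands or targets. The ligands summed to 58.8 ± 1.82 in shMYC2-labelled, 206 ± 6.92 in shMYC1-labelled, 44.9 ± 3.51 in Resistant, 91.4 ± 4.26 in MYC T58A and 194 ± 0.288 in Parental libraries. The targets summed to 409 ± 34.1 in shMYC2-labelled, 227 ± 12.1 in shMYC1-labelled, 131 ± 39.3 in Resistant, 80.6 ± 6.57 in MYC T58A and 256 ± 25.9 in Parental libraries. Ligands and targets were low together in Resistant and MYC T58A and high together in shMYC1-labelled and Parental libraries. The shMYC2-labelled libraries departed from that, with the highest target sum and a ligand sum closest to that of Resistant. JAG2 made up 20.2% ± 1.69 of the ligand sum in shMYC2-labelled libraries, against 2.41% ± 0.47 in Resistant libraries.

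**Figure D4:**
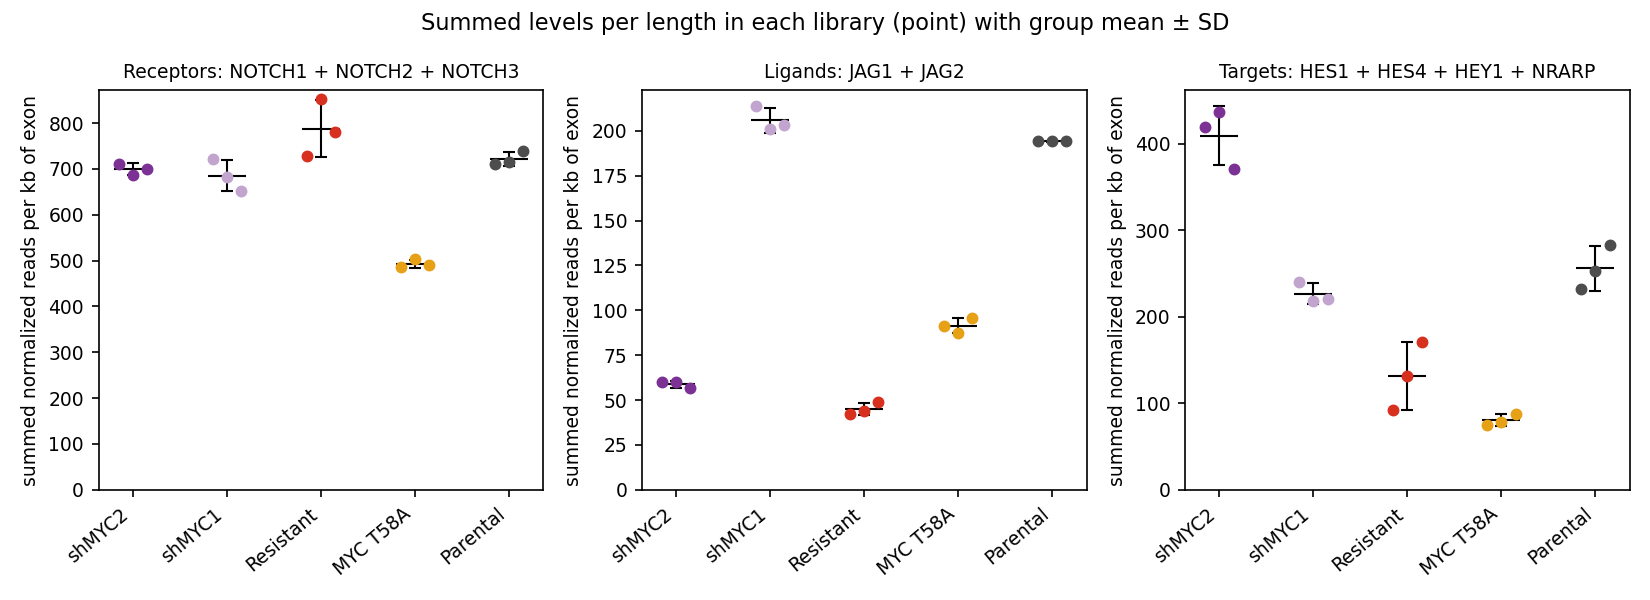
Summed normalized reads per kilobase of the 3 receptors, 2 ligands and 4 targets in each library, with group means and SD. Target sums average 409 in shMYC2-labelled libraries, where the ligand sum averages 58.8, against 131 and 44.9 in Resistant libraries.

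The rest of the pathway was read from 9 lists by role that held 85 further genes, of which 77 were analysed here. In Resistant against Parental 27 were higher and 23 lower (64.9% called, 51.6% of all genes), with a median log2 difference of -0.03 against 0.01 over all genes. In MYC T58A against Parental 16 were higher and 32 lower (62.3% called, 63.8% of all genes), with a median of -0.14 against -0.02. In shMYC1-labelled libraries against Resistant 27 were higher and 28 lower (71.4% called, 57.1% of all genes), with a median of -0.01 against -0.03. In shMYC2-labelled libraries against Resistant 41 were higher and 27 lower (88.3% called, 79.2% of all genes), with a median of 0.18 against -0.08. The medians thus lay near that of all genes in 2 comparisons, below it in MYC T58A cells and above it in shMYC2-labelled libraries.

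Among the genes of the nuclear complex, a Mastermind gene had the widest called difference in 3 of the 4 comparisons. MAML3 averaged 152 normalized reads in Resistant and 739 in Parental cells (log2 difference -2.28, adjusted p = 7.41e-13), and 321 in MYC T58A cells (log2 difference -1.20 from Parental). In shMYC1-labelled libraries it averaged 428, with a log2 difference of 1.49 from Resistant (adjusted p = 1.44e-10). MAML2 averaged 282 in MYC T58A and 1098 in Parental cells (log2 difference -1.96, adjusted p = 2.72e-14), and was 0.25 higher in Resistant than in Parental cells. MAML1 was 0.60 lower in Resistant than in Parental cells (log2 difference -0.60), like its neighbours, whose median was -0.58. RBPJ, the DNA-binding partner, was 0.30 higher in shMYC1-labelled libraries than in Resistant libraries (adjusted p = 0.000378) and 0.46 lower in shMYC2-labelled than in Resistant libraries (log2 difference -0.46, adjusted p = 1.9e-06). It was 0.28 higher in MYC T58A than in Parental cells (adjusted p = 0.00063), and its log2 difference was -0.02 in Resistant against Parental (adjusted p = 0.777).

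The proteases that cut the receptors also differed. FURIN, which makes the first cut, averaged 1819 normalized reads in Resistant and 3292 in Parental cells (log2 difference -0.86, adjusted p = 6.76e-08), and 1879 in MYC T58A cells (log2 difference -0.81). NCSTN, the gamma-secretase subunit nicastrin, was 0.94 lower in MYC T58A than in Parental cells (log2 difference -0.94, adjusted p = 1.22e-11), where its neighbours had a median of -0.63. PSEN2, a catalytic subunit of gamma-secretase, averaged 52.3 in shMYC2-labelled and 607 in Resistant libraries (log2 difference -3.51, adjusted p = 4.43e-17), with a neighbour median of -1.27. APH1B, another subunit, rose by 1.86 and ADAM17, a sheddase, by 0.92 in the same comparison (adjusted p = 5.48e-11 and 1.05e-13). Among the sugar transferases that tune ligand choice, LFNG was 0.80 higher in Resistant than in Parental cells (adjusted p = 7.22e-05), GXYLT2 was 1.18 lower in MYC T58A than in Parental cells (log2 difference -1.18, adjusted p = 1.15e-08) and GXYLT1 was 1.75 higher in shMYC2-labelled than in Resistant libraries (adjusted p = 8.2e-15).

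Genes for endocytosis and turnover of receptor and ligand moved in both directions. DTX4, a Deltex ubiquitin ligase, averaged 373 normalized reads in Resistant and 119 in Parental cells (log2 difference 1.63, adjusted p = 1.07e-08), and 77.7 in shMYC1-labelled libraries (log2 difference -2.24 from Resistant, adjusted p = 9.97e-11). DTX3L averaged 395 in shMYC2-labelled and 2836 in Resistant libraries (log2 difference -2.84, adjusted p = 2.03e-16), and 1266 in shMYC1-labelled libraries. EPN2, an epsin, averaged 2341 in shMYC2-labelled and 355 in Resistant libraries (log2 difference 2.72, adjusted p = 1.75e-16). MIB1, the ubiquitin ligase that activates ligands, was 0.95 higher in MYC T58A than in Parental cells (adjusted p = 4.98e-11), where its neighbours had a median of 0.82. MIB2 was 1.55 lower in shMYC2-labelled than in Resistant libraries (log2 difference -1.55, adjusted p = 8.54e-09).

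Other ligands, corepressors and reported targets also differed. DNER, a non-canonical ligand, averaged 1620 ± 21.6 normalized reads in shMYC2-labelled and 261 ± 20.6 in Resistant libraries (SD, n = 3 each; log2 difference 2.63, adjusted p = 1.69e-15), and EGFL7 averaged 633 and 189 there (log2 difference 1.75). HDAC1, a histone deacetylase gene among the corepressors, was 0.91 lower in MYC T58A than in Parental cells (log2 difference -0.91, adjusted p = 7.29e-12), beside a neighbour median of -0.77. SNAI2, a neural crest repressor, averaged 4560 in shMYC2-labelled and 139.8 in Resistant libraries (log2 difference 5.02, adjusted p = 8.37e-18), and 21.99 in MYC T58A and 76.3 in Parental cells (log2 difference -1.75). SOX9 averaged 245 in shMYC1-labelled and 2873 in Resistant libraries (log2 difference -3.55, adjusted p = 7.95e-19), and 3281 in MYC T58A and 1454 in Parental cells (log2 difference 1.17). EPHB4 averaged 366 in Resistant and 1229 in Parental cells (log2 difference -1.75, adjusted p = 1.07e-09) and was higher than Resistant by 1.84 in shMYC1-labelled and by 1.94 in shMYC2-labelled libraries. CCND1, the cyclin D1 gene, averaged 12495 in MYC T58A and 26468 in Parental cells (log2 difference -1.08, adjusted p = 9.82e-13).

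**Figure D5:**
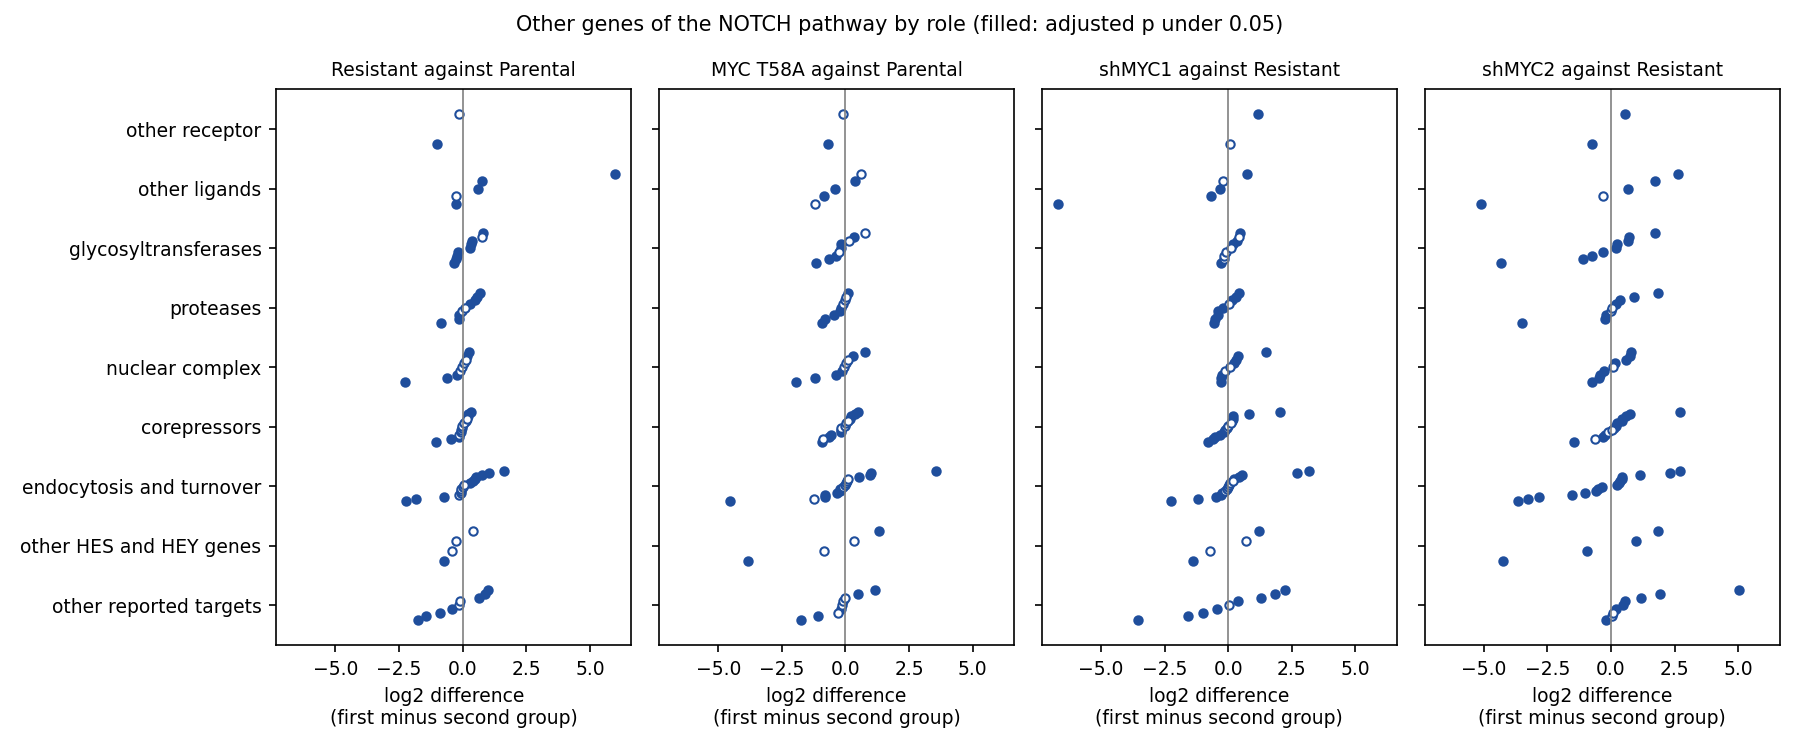
Log2 differences of the 77 analysed pathway genes outside the members, grouped by role, in the 4 main comparisons, with called genes filled and a line at 0. In shMYC2 against Resistant 41 genes are called higher and 27 lower, and SNAI2 is the point at 5.02 among the other reported targets.

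The genes most like each member in pattern were taken as those with the highest Pearson r of log2 values over the 15 libraries, among 12493 or 12494 genes with a mean of at least 50. Libraries of 1 group share a condition, so these values describe the order of 5 groups more than 15 separate points. SDC3, which encodes syndecan-3, was among the 3 nearest genes of both HES1 (r = 0.973) and HEY1 (r = 0.981), and averaged 3299.9 normalized reads in shMYC2-labelled, 1285 in shMYC1-labelled, 237 in Resistant, 157 in MYC T58A and 1238 in Parental libraries. MFAP2, a microfibril protein gene, was nearest to HES1 (r = 0.983). UCKL1 was nearest to JAG1 (r = 0.986), KCTD5 to NOTCH1 (r = 0.946) and SLFN5 to NOTCH2 (r = 0.984). For NOTCH3, JAG2 and NRARP, whose widest differences set the shMYC2-labelled libraries apart, the nearest genes were SHROOM1 for NOTCH3 (r = 0.997), HOOK3 for JAG2 (r = 0.987) and ZNF185 for NRARP (r = 0.997). These r values mainly reflect the step between shMYC2-labelled libraries and the rest. JAG2 and NRARP passed the filter on low values only through that group, so their r is no measure of likeness beyond that step. HES4 had the lowest best match, SBNO2 (r = 0.938).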

How the data were processed

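RNA was measured in 15 libraries of A375 cells, 5 groups of 3, made with a stranded mRNA kit per the labels' protocols. Reads passed through Trim Galore, cutadapt, STAR, HTSeq and DESeq2, per the submitters' processing notes. No source used here gives the genome build or annotation. The authors deposited a signal per gene, which from its values is reads divided by a factor per library: the values of each library were multiples of a single step, and whole reads were recovered within a tolerance of 0.01. Values were taken as log2(value + 1), and 17012 genes that reached 10 in 3 or more libraries entered the fit, while 1310 did not. Group means were fitted in R 4.3.3 by limma 3.58.1, with its trend and robust options, to the 15 libraries together, and this step was tested on simulated data. Benjamini-Hochberg adjustment ran over the 17012 genes of each comparison, and an adjusted p under 0.05 was called. On this scale a log2 difference understates the change of a low gene. For each gene the 5 groups share 1 estimate of the spread within groups, which limma draws towards that of genes of like level. P-values here rest on that estimate, not on the spread of the compared libraries alone. The 3 libraries of a group come from a single clonal or parental population. With 3 against 3 libraries an exact permutation test of a single gene cannot go below 0.1, so none is given. edgeR 4.0.16 and DESeq2 1.42.0 were run on the recovered reads. GENCODE v29 gave gene order, exon length and base composition by symbol (83.8% of tested genes for the last), and RefSeq GRCh38.p14 the promoters. Members and lists were chosen with earlier results of these data known. Named pathway genes are up to 3 called genes of each role list and comparison with the largest difference and a mean of at least 50. The text gives a part of them.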

Additional observations from a re-analysis of the deposited data

Results flagged for a closer look

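The libraries labelled shMYC1 and shMYC2 were both set against Resistant cells, and the members differed between their changes. For JAG2 and NRARP this is a description, since they passed the filter on low values only through the shMYC2-labelled libraries. The other 7 passed the test of the difference. Given as the log2 difference of shMYC2-labelled libraries from Resistant minus that of shMYC1-labelled libraries, which equals their direct contrast in limma, NOTCH1 stood at -0.7343, NOTCH2 at 0.2564, NOTCH3 at -4.84, JAG1 at -2.126, JAG2 at 3.741, HES1 at 0.6421, HES4 at 1.568, HEY1 at 0.4884 and NRARP at 5.57, a value that depends on the pseudocount because shMYC1-labelled libraries have no NRARP read. The adjusted p was 0.0237 for HES4 and 0.0048 for HEY1. In that contrast 78.6% of all tested genes were called, so such a difference is the usual case here. MYC averaged 7817 normalized reads in shMYC2-labelled and 486 in shMYC1-labelled libraries, against 302 in Resistant libraries, so it was higher in both than in Resistant cells.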

How the results depend on the processing

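The 36 results of the 9 members in 4 comparisons were repeated under up to 18 alternative settings, with 635 values in all. Of these, 609 kept their call and direction or stayed without a call, whatever their sign. Another 10 lost their call and 16 gained one, and no difference called in either fit changed sign. Some uncalled differences did change sign, as JAG1 in shMYC2-labelled libraries against Resistant (-0.04 to 0.28). The 609 include NRARP where neither group had a read, an outcome fixed in advance. They also include JAG2 and NRARP in shMYC2-labelled libraries, through which alone both passed the filter. The tally is thus no measure of robustness. The 10 lost calls were all of JAG2 in Resistant against Parental, and the gained calls were of NOTCH3, JAG1 and HES4. The cause was not tested. Of the 7 members other than JAG2 and NRARP, those called ranged from 1 to 2 higher and 4 lower in Resistant against Parental, 1 higher and 4 to 5 lower in MYC T58A against Parental, 4 to 5 higher and 1 to 2 lower in shMYC1-labelled libraries against Resistant, and 3 to 5 higher and 2 lower in shMYC2-labelled libraries against Resistant. Leaving out 1 library at a time gave 7864 to 8405 genes called in Resistant against Parental, 10064 to 10305 in MYC T58A against Parental, 8925 to 9640 in shMYC1-labelled and 13046 to 13179 in shMYC2-labelled libraries against Resistant, and 13 to 19 called neighbouring pairs over all 9 members, JAG2 and NRARP included, against 15 of 36 with every library. Leaving out Resistant library 1 together with shMYC1 library 2 was chosen after seeing the data and gave 18 such pairs. JAG2 and NRARP passed the filter only through the shMYC2-labelled libraries, so these pair counts only show how far the number moves. Without these members 13 of 28 pairs were called with every library. In shMYC2-labelled libraries against Resistant the median log2 difference of all genes was -0.08, with 45.7% of calls higher. With quantile normalization it was 0.15 and 56.0%, and with equal totals -0.22 and 38.8%. JAG1 in that comparison gained a call with quantile normalization, at 0.28. A minimum of 50 left NRARP untested. No paired analysis was possible because the columns of the table carry no replicate number of the labels.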

Other observations

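Several pathway genes under the mean of 50 normalized reads used for naming differed widely between groups, and they were chosen here after their values were seen. CNTN1, a membrane protein reported as a non-canonical NOTCH ligand, had 228, 236 and 215 normalized reads in Resistant libraries and at most 9.39 in any library of the other 4 groups. Its log2 difference of Resistant from Parental was 5.996. No test is given, since CNTN1 passed the filter on low values only through the Resistant libraries. HEY2, a repressor closely related to HEY1, had 51.7, 52.1 and 54.2 in shMYC2-labelled and 10.7, 15.04 and 16.4 in Resistant libraries (log2 difference 1.86, limma adjusted p = 7.91e-05). In MYC T58A libraries HEY2 had 1 library with reads, at 1.76, against 14.6 to 22.5 in Parental libraries (log2 difference -3.83, adjusted p = 2.26e-08). HES6 averaged 38.4 in shMYC2-labelled, 44.99 in shMYC1-labelled and 19.2 in Resistant libraries (log2 differences from Resistant 0.97 and 1.19). NEURL1, a ubiquitin ligase for NOTCH ligands, averaged 54.1 ± 3.10 in MYC T58A and 3.80 ± 1.23 in Parental libraries (SD, n = 3 each, log2 difference 3.55), and had no read in shMYC2-labelled libraries. No test is given for NEURL1 either, since it passed the filter only through the MYC T58A libraries.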
